A study of Mus musculus with 4 samples.

Results

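In the sorted crypt cells of 8 mice, 1381 of 5452 barcodes carried between 20% and 50% of their unique molecular identifiers (UMIs, each 1 captured RNA molecule) on the 13 protein genes of the mitochondrial genome. They are called high-mt cells here. Members were barcodes with at least 1000 gene UMIs, at least 500 genes, a top hashtag with at least 60% of the hashtag counts, and a mitochondrial share of at least 20% and under 50%. Pool 1 held 714 of them and pool 2 held 667. They were 38.2% of the 3615 barcodes that met the same filters at any mitochondrial share. The 2011 cells that met these filters with a mitochondrial share under 20% (low-mt cells) were the comparison, and 223 barcodes at 50% or more and 1837 that failed a filter were set aside. The members were thus selected on one measured value, the mitochondrial share. That share, and the UMI totals that make it up, are therefore given only as a description.

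The study used Lgr5-EGFP-IRES-CreERT2;Rosa26-mTmG mice. Lgr5 marks the stem cells at the base of the crypt, and its promoter drives both EGFP and a tamoxifen-dependent Cre. After 4-OH-tamoxifen, Cre switches the Rosa26 reporter to membrane GFP in Lgr5-expressing cells and in their descendants. All 8 mice received the drug and all carried both alleles. The 4 groups, by sort gate and time after the drug, were GFPhigh cells (clones) at 48 h (mice 1 to 4) and at 72 h (mice 5 to 8), and GFP-negative control epithelium of the same mice at 48 h and at 72 h. Lgr5 drives EGFP as well as Cre, so a gate on green fluorescence may itself sort on Lgr5. Villi were scraped from distal small intestine, crypts were dissociated with TrypLE at 37 °C in the presence of the ROCK inhibitor y27632, and cells were stained for EpCAM, CD31, CD45 and DAPI before the sort. No age or sex was given in the labels. Hashtag antibodies marked the mice, and the clones of a mouse were loaded in one pool and its control cells in the other.

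Mitochondrial transcripts are made and kept inside the organelle, behind membranes of their own, and encode subunits of respiratory complexes I, III, IV and V. All other transcripts are made in the nucleus, and most mRNAs work in the cytosol or at the endoplasmic reticulum. A high mitochondrial share is widely used in single-cell work to leave out cells that have lost cytosolic RNA through a leaking membrane, but cells rich in mitochondria can also have one. The intestinal crypt holds stem and dividing cells that feed an absorptive lineage (enterocytes) and a secretory one (goblet, Paneth, enteroendocrine and tuft cells).

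The pools held 3342 and 2110 barcodes with 30278443 and 28050962 UMIs, and 1 barcode sequence occurred in both, though 0 among the cells kept. High-mt cells per mouse numbered 12, 22, 33 and 16 in clones at 48 h, 99, 38, 157 and 203 in clones at 72 h, 53, 50, 159 and 57 in control cells at 48 h, and 119, 83, 163 and 117 in control cells at 72 h. The clones of mouse 3 stood apart, since 942 barcodes with their hashtag on top failed the filters, against 4 to 108 in the other 48 h clones. Their low-mt cells held 3615 non-mitochondrial UMIs each on average, against 16662 to 25610 in the other 13 low-mt sums used in gene tests. Shares, the measures per cell, the mitochondrial make-up and counts of called genes are therefore also given without mouse 3. The clones of mice 1 and 4 held only 4 and 8 low-mt cells and stay out of gene tests between high-mt and low-mt cells, which use the other 14 of 16 combinations of mouse and gate.

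High-mt cells held far fewer non-mitochondrial UMIs and about as many mitochondrial ones. Non-mitochondrial UMIs per cell had a mean of mouse medians of 4147 ± 440 (SD, n = 8 mice) in high-mt cells and 17383 ± 1614 in low-mt cells. Mitochondrial UMIs per cell averaged 1715 ± 168 in high-mt cells and 1425.5 ± 144 in low-mt cells, with the high-mt median above in 8 of 8 mice. Both totals form the ratio in the selection rule, so no test is attached to them. Across steps of mitochondrial share, the median of mitochondrial UMIs stayed between 1593 and 1754.5 from the 5% to 10% step up to the 40% to 50% step. Over the same steps the median of non-mitochondrial UMIs was 22837, 11376, 7924, 5947, 4799, 3375.5 and 2206.5. The steps ran on without a gap at 20%: the 170 cells just inside the limit (20% to 22%) had a median of 6366.5 non-mitochondrial UMIs, and the 168 just outside (18% to 20%) had 7604.

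**Figure D1:**
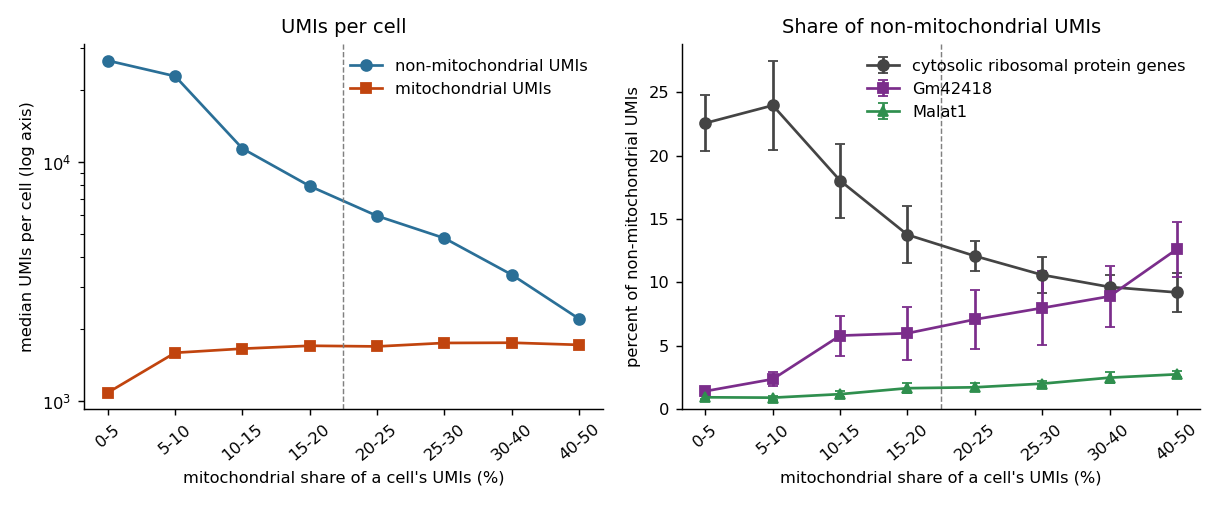
Cells by mitochondrial share (x axis, percent; dashed line at 20%). Left, median UMIs per cell on a log axis: the mitochondrial median lies between 1085 and 1754.5, and the non-mitochondrial median is 26540 in the lowest step and 2206.5 in the highest. Right, percent of non-mitochondrial UMIs, mean ± SD over mice (6 mice in the last step and 8 in the others): from the 5% to 10% step on, cytosolic ribosomal protein genes go down at each step while Gm42418 and Malat1 go up.

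Measures that do not enter the mitochondrial share were compared as well. With every cell thinned to 1000 non-mitochondrial UMIs, high-mt cells had 710 ± 18.6 genes detected (mean of mouse medians ± SD) and low-mt cells 634 ± 21.2. This was higher in high-mt cells in 8 of 8 mice (difference 76.1, exact two-sided sign-flip test over mice, p = 0.00781, the smallest that 8 mice allow). Thinning left out 42 high-mt cells and 1 low-mt cell. Antibody hashtag counts, which mark the cell surface, had mouse medians averaging 222 ± 118 in high-mt cells and 204 ± 116 in low-mt cells, higher in 8 of 8 mice (exact sign-flip test, p = 0.00781). The top hashtag took 85.9% ± 6.56 of the hashtag counts in high-mt cells and 85.6% ± 7.34 in low-mt cells (exact sign-flip test, p = 0.562). The filter held this value at 60% or more in both kinds of cell, so the comparison covers only values above that limit. Over these 3 measures the adjusted exact p was 0.0117 for each of the first pair. Without mouse 3 the differences were 77.7 genes and 17.1 hashtag counts (exact sign-flip test over 7 mice, p = 0.0156 each, the smallest possible). Each median runs over both pools.

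The share of high-mt cells asks whether the sort gates or the times differed in them. It is given as a percent of cells under 50% mitochondrial UMIs, with the 95% Wilson interval, which covers counting error only. In the 48 h clones it was 75% (50.5% to 89.8%) in mouse 1, 55.0% (39.8% to 69.3%) in mouse 2, 41.8% (31.5% to 52.8%) in mouse 3 and 66.7% (46.7% to 82.0%) in mouse 4. In the 48 h control cells of the same mice it was 25.9% (20.3% to 32.3%), 35.5% (28.0% to 43.6%), 41.1% (36.3% to 46.1%) and 26.0% (20.7% to 32.2%). Every clone value lay above every control value at 48 h, though that of mouse 3 did so by under 1 percentage point. In the 72 h clones the share was 37.8% (32.1% to 43.8%), 50.7% (39.6% to 61.7%), 58.1% (52.2% to 63.9%) and 37.2% (33.2% to 41.3%) in mice 5 to 8. In the 72 h control cells it was 32.5% (27.9% to 37.5%), 38.2% (32.04% to 44.9%), 66.5% (60.4% to 72.1%) and 39.0% (33.7% to 44.6%). At 72 h the gates overlapped, and mouse 7 was highest in both.

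The mean share at 48 h was 59.6% ± 14.4 in clones and 32.1% ± 7.48 in control cells (SD, n = 4 mice each), a difference of 27.5 percentage points. An exact permutation test gave p = 0.0286, the smallest that 4 against 4 allow, and an adjusted p of 0.115 over the 5 comparisons made. Exact sign flips within the 4 mice, which treat the gates of a mouse as a pair, gave p = 0.125, the smallest possible. Without mice 1 and 4, whose clones held 16 and 24 cells, the difference was 10.1 points, and without mouse 3 it was 36.4. At 72 h the mean was 45.9% ± 10.2 in clones and 44.1% ± 15.2 in control cells (difference 1.87, exact permutation p = 0.886). Over all mice it was 52.8% ± 13.7 in clones and 38.1% ± 12.8 in control cells (difference 14.7, higher in 6 of 8 mice, exact permutation p = 0.046, adjusted p = 0.115; exact sign flips, p = 0.0859). Without mouse 7 the difference was 17.98 with an adjusted p of 0.0437 by the same exact test, without mice 1 and 4 it was 4.62, and without mouse 3 it was 16.7.

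Within pool 1, clones averaged 50.9% ± 13.8 and control cells 33.0% ± 5.32 (difference 17.9, exact permutation p = 0.0571, n = 4 each). Within pool 2, clones averaged 54.6% ± 15.4 and control cells 43.2% ± 16.9 (difference 11.5, exact permutation p = 0.371). The pool effect, read from mice whose clones lay in opposite pools, was 6.91 points higher in pool 2 (48.9% ± 16.2) than in pool 1 (42.0% ± 13.6), with an exact permutation p of 0.333 over 36 arrangements, whose smallest p is 0.0556. Between times, clones had 13.7 points fewer high-mt cells at 72 h than at 48 h (exact permutation p = 0.171, adjusted p = 0.25; without mouse 3 the difference was -19.6), and control cells 11.97 points more (exact permutation p = 0.2, adjusted p = 0.25). The gap between the gates was 1.87 ± 8.97 points at 72 h and 27.5 ± 21.8 at 48 h (SD over 4 mice each), and an exact permutation of times over mice gave p = 0.0857 for that change. No difference in share passed after adjustment with all mice included.

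**Figure D2:**
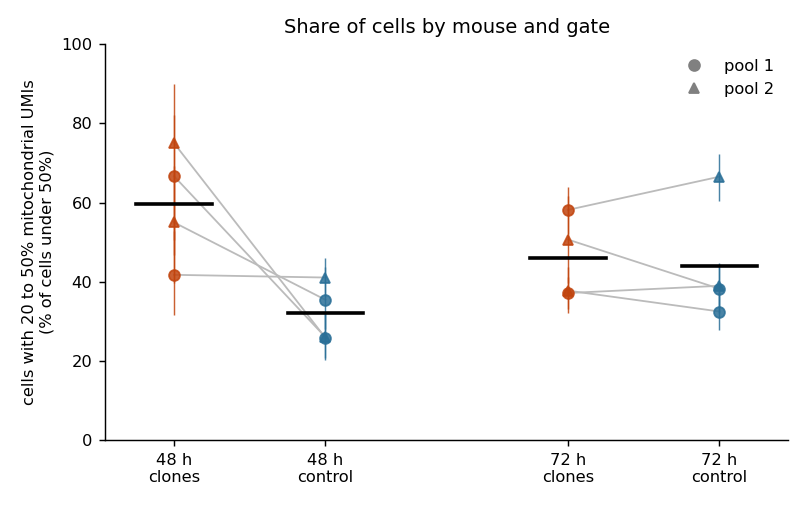
Share of cells with 20% to 50% mitochondrial UMIs (y axis, percent of cells under 50%) by group, 1 point per mouse with its 95% Wilson interval; grey lines join the gates of a mouse, black bars are means, and shapes give the pool. The 48 h clones average 59.6% beside 32.1% in their control cells, and the 72 h gates overlap (45.9% and 44.1%).

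The mitochondrial UMIs of high-mt cells were also divided differently among the 13 genes. The rule used only their total, so each gene's percent of all mitochondrial UMIs was compared by exact sign flips over 8 mice, adjusted over the 13 genes, where the smallest p of 0.00781 becomes 0.0127. The 13 parts add up to a fixed total, so a fall in any part raises the others, and the directions are not independent. How far the fall of mt-Co1 accounts for the rises was not tested. The parts of the subunits of cytochrome c oxidase (complex IV) moved in opposite directions. mt-Co1 (chrM:5328-6872, GRCm38), which encodes the catalytic subunit, took 13.3%, 14.7% and 16.2% (lowest, median and highest of 8 mice) in high-mt cells and 15.3%, 17.7% and 19.5% in low-mt cells. The mean was 14.6% ± 0.941 in high-mt cells and 17.4% ± 1.43 in low-mt cells, lower in 8 of 8 mice (exact sign-flip test, adjusted p = 0.0127). The ranges overlapped although each mouse moved the same way. mt-Co3 (chrM:8607-9390) took 19.5% ± 0.543 in high-mt cells and 17.97% ± 0.642 in low-mt cells, and its ranges, 19.0% to 20.4% and 17.1% to 18.9%, did not overlap. mt-Co2 (chrM:7013-7696) took 13.8% ± 0.254 in high-mt cells and 13.2% ± 0.313 in low-mt cells.

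The ATP synthase (complex V) genes also parted. mt-Atp6 took 19.7% ± 0.602 in high-mt cells and 18.6% ± 0.597 in low-mt cells, and mt-Atp8 0.831% ± 0.0897 and 0.963% ± 0.123. These overlap on the same strand, as do mt-Nd4l and mt-Nd4, and share a transcript, so their counts are not independent. Among the complex I genes, mt-Nd4 was lower in high-mt cells (5.56% ± 0.148 against 5.96% ± 0.154), as was mt-Nd5 (1.78% ± 0.162 against 1.92% ± 0.150) and mt-Nd4l. All 8 genes named here with a direction moved the same way in 8 of 8 mice (exact sign-flip test, adjusted p = 0.0127 each). The other 5 did not pass: mt-Nd6, the one protein gene on the opposite strand, was higher in 7 of 8 mice with an exact adjusted p of 0.0677, and mt-Nd1, mt-Nd2, mt-Nd3 and mt-Cytb had exact adjusted p-values from 0.264 to 0.805. The differences were small beside the rise in total share: the mean log2 ratio of a gene's part ran from -0.25 (mt-Co1) to 0.12 (mt-Co3) among the genes that passed. In pool 2 cells alone 5 genes passed, in pool 1 cells alone 7 did, and without mouse 3 again 8 did.

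**Figure D3:**
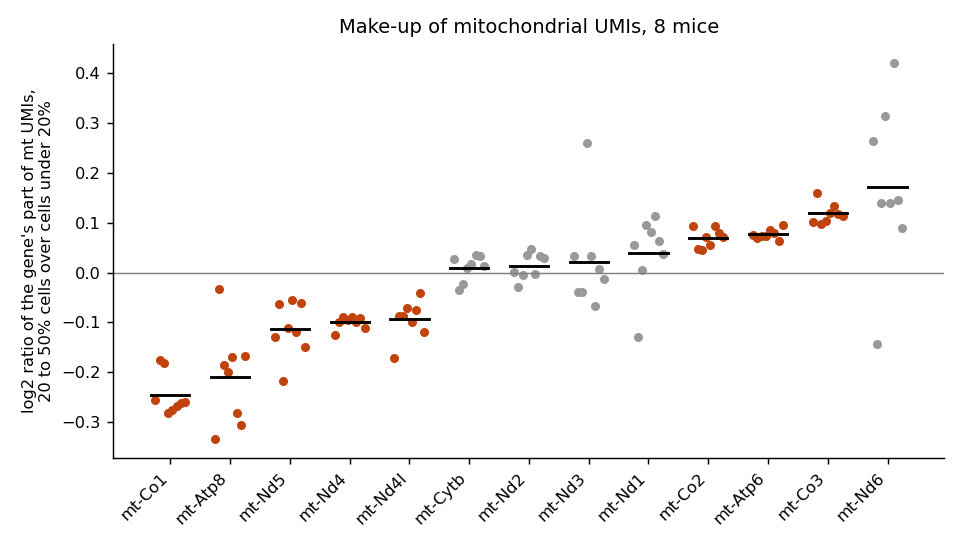
Make-up of mitochondrial UMIs: log2 ratio of each gene's part of all mitochondrial UMIs, high-mt over low-mt cells (y axis), by gene (x axis), with 1 point per mouse and a bar at the mean of 8 mice. Orange genes passed the exact test after adjustment: mt-Co1, mt-Atp8, mt-Nd5, mt-Nd4 and mt-Nd4l lie below 0 and mt-Co2, mt-Atp6 and mt-Co3 above 0 in every mouse.

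For all other genes, UMIs were summed per mouse, gate and mitochondrial class. Levels are in CPM of the non-mitochondrial UMIs of the tested genes, with the total of each sum adjusted by its TMM scaling factor. The mitochondrial excess does not enter them. The question was how the rest of the transcriptome of high-mt cells differed from that of low-mt cells of the same mouse and gate. With edgeR's quasi-likelihood test and Benjamini-Hochberg adjustment at 5%, 3152 of 7987 genes tested were higher in high-mt cells (39.5%) and 2557 lower (32%), or 71.5% in all. The 14 pairs of sums came from 8 mice, and the gates of a mouse entered as separate pairs. The p-values of this fit thus do not measure the spread between mice alone. Counts of called genes within a list are read against those percentages. For 446 genes (5.58%) the 14 high-mt sums and the 14 low-mt sums did not overlap, 131 of them higher in high-mt cells and 315 lower. Without mouse 3 there were 710 such genes (8.89%), 260 of them higher and 450 lower. The median log2 fold change over all tested genes was 0.09 with TMM scaling. With scaling by library size alone it was 0.42, and the calls split into 4787 higher and 1363 lower, so calls of small changes, above all of small negative ones, rest on the scaling. Without mouse 3 the counts were 2900 higher and 2517 lower.

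Long noncoding and repeat-like RNAs led the genes that were higher. Kcnq1ot1, an imprinted antisense RNA that stays in the nucleus (chr7:143203458-143296549, minus strand, GRCm38), had 634, 1721 and 3021 CPM (lowest, median and highest of 14 sums) in high-mt cells and 132, 308.2 and 823 CPM in low-mt cells. Its log2 fold change was 2.36 ± 0.12 (SE, edgeR adjusted p = 5.87e-17). The ranges overlapped through 1 low-mt sum, that of the shallow clones of mouse 3, and the next highest low-mt sum was 458 CPM. Kcnq1, which lies opposite it on the plus strand, had 62.8, 98.4 and 202 CPM in high-mt cells and 34.9, 74.7 and 125 CPM in low-mt cells (0.44 ± 0.08, adjusted p = 2.04e-05). Tsix (chrX:103431517-103484957, plus strand) and Xist (chrX:103460366-103483254, minus strand), the antisense pair of X inactivation, had log2 fold changes of 2.04 ± 0.08 and 1.26 ± 0.13. Both were scarce in mice 1, 5 and 7, where Tsix had 3.98 to 14.4 CPM in high-mt cells and 1.11 to 4.87 CPM in low-mt cells. In the other mice Tsix had 533 to 1359 CPM in high-mt cells and 134 to 340.4 CPM in low-mt cells. Xist had 1.99 to 62.1 CPM in high-mt cells and 1.93 to 35.3 CPM in low-mt cells of mice 1, 5 and 7, and 2223 to 4143 CPM in high-mt cells and 1126.5 to 1960 CPM in low-mt cells of the others. Whether the counting used strand is not given in the sources used here, so how far reads of these overlapping pairs were kept apart is not known. Malat1, a nuclear RNA of splicing speckles, had 13928, 20053 and 23022 CPM in high-mt cells and 7282, 11413 and 14347 CPM in low-mt cells (0.75 ± 0.06, adjusted p = 3.83e-12, higher in 14 of 14). Neat1, the scaffold of nuclear paraspeckles, did not pass (0.17 ± 0.10, adjusted p = 0.132), and Firre, an X-linked nuclear RNA, rose by 1.56 ± 0.09.

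Of the list of nuclear-retained long noncoding RNAs, 8 of 14 were expressed enough to be tested, of which 5 were higher and 1 lower, with a median log2 fold change of 0.49. By annotated type, 25 of 33 antisense RNAs and 28 of 48 lincRNAs were higher, against 39.1% of protein-coding genes. A block on chromosome 17 also rose. Gm26917 (chr17:39843013-39846341) had 551, 742 and 1111 CPM in high-mt cells and 112, 155 and 644 CPM in low-mt cells (2.11 ± 0.09), where 644 CPM is again the clones of mouse 3 and the next highest sum had 251. Its neighbours AY036118 (chr17:39847113-39848035, 1.48 ± 0.11) and Gm42418 (chr17:39846958-39848788, 1.42 ± 0.14), which overlap on opposite strands and cannot be told apart without strand, rose with it. As background, this stretch of the mouse assembly matches the precursor of ribosomal RNA. Gm42418 made up 8.14% ± 2.27 of non-mitochondrial UMIs in high-mt cells and 2.62% ± 0.449 in low-mt cells (SD, n = 8 mice), higher in 8 of 8, and 12.6% ± 2.18 in the 40% to 50% step. Gm42418, Xist and Kcnq1 were chosen after their values were seen.

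Protein-coding genes also stood among the 12 largest rises, which were taken from genes higher in every combination of mouse and gate, and they were of mixed function. Lars2, the mitochondrial leucyl-tRNA synthetase, had 976, 2262 and 3621 CPM in high-mt cells and 304.2, 742 and 1819.7 CPM in low-mt cells (1.54 ± 0.13, adjusted p = 1.02e-11). In the clustering of cells described below, Lars2, Gm42418 and Gm26917 led the same unnamed cluster of 221 cells, of which 82.4% were high-mt. Whether the Lars2 counts came from its own mRNA was not tested. Lrp1, an endocytic receptor, had 62.0, 113 and 166 CPM in high-mt cells and 27.8, 33.5 and 55.7 CPM in low-mt cells (1.70 ± 0.10), without overlap. Nme7 (1.604 ± 0.08), a member of the nucleoside diphosphate kinase family, Phykpl (1.56 ± 0.07), an enzyme of hydroxylysine breakdown, and Mlxipl (1.49 ± 0.08), a glucose-responsive transcription factor, also had ranges that did not overlap. Myo9a (1.74 ± 0.10), an unconventional myosin, and Nos2 (1.53 ± 0.12), the inducible nitric oxide synthase, overlapped in range.

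Cytosolic ribosomal protein genes formed the largest group that was lower. All 78 tested were lower in high-mt cells (background 32%), and for 75 of 78 the sums did not overlap (background 5.58%; 76 without mouse 3, background 8.89%). Their median log2 fold change was -1.37 (range -1.93 to -0.43), against 0.09 over all genes, and with library-size scaling 76 were still called lower with a median of -1.05, against 0.42. Together they held 10.9% ± 1.15 of non-mitochondrial UMIs in high-mt cells and 22.03% ± 2.82 in low-mt cells (SD, n = 8 mice), lower in 8 of 8. Rpl13, a protein of the large subunit, had 1869, 2399.8 and 3502 CPM in high-mt cells and 3955, 5671 and 7589.7 CPM in low-mt cells (-1.18 ± 0.06). These genes have many near-identical pseudogene copies, so single values are less certain than the group. The lower share was already present below the 20% limit: the group held 24.0% ± 3.51 in the 5% to 10% step, 13.8% ± 2.23 in the 15% to 20% step and 9.21% ± 1.52 in the 40% to 50% step.

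Most ribosomal protein mRNAs begin with a cytosine followed by a run of pyrimidines, the TOP element, through which mTOR signalling controls their translation. The start sites of 6 of them are shown, 20 bases before and 10 bases from the RefSeq start (GRCm38.p6). They were picked for the letters CTTTC in this window, in order from the lowest log2 fold change. The shared letters and the strong falls of these 6 thus follow from the choice. The capitals mark that motif on the gene's own strand. In Rps15a the marked letters lie wholly before the start, as does the upstream mark in Rps27 and in Rpl35, so a mark need not be the TOP element.
Rps27 (chr3:90213639-90213668, minus strand): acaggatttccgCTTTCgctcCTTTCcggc
Rps15a (chr7:118116138-118116167, minus strand): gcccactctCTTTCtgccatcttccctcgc
Rpl35 (chr2:39005122-39005151, minus strand): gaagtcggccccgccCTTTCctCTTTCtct
Rps10 (chr17:27635235-27635264, minus strand): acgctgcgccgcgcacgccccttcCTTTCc
Rpl15 (chr14:18270977-18271006, minus strand): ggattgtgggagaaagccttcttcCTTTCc
Rpl35a (chr16:33056462-33056491, plus strand): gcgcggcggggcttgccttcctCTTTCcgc

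These 6 genes had log2 fold changes of -1.89 (Rps27), -1.83 (Rps15a), -1.82 (Rpl35), -1.75 (Rps10), -1.65 (Rpl15) and -1.52 (Rpl35a), each with an SE of 0.06 to 0.07. Of the 78 ribosomal protein genes, 58 matched a RefSeq start, and 14 of those windows (24.1%) held CTTTC on the gene's strand and 2 (3.45%) on the other strand. Among the 6399 tested genes with a start, 279 (4.36%) held it on the gene's strand and 214 (3.34%) on the other, and among all 27022 starts 4.96% and 4.06%. Of 68 mitochondrial ribosomal protein genes, whose mRNAs are not known for this element, 2 held it on the gene's strand. A match to these letters is a description of the window only.

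Nuclear genes of the mitochondrion were mostly lower in CPM of non-mitochondrial UMIs. The share of the mitochondrial genes is high by the selection rule and is on another scale, so no contrast with them is drawn. Of the nuclear subunits, 35 of 37 of complex I were lower and 1 higher (median -0.68), 3 of 4 of complex II lower and 1 higher (-0.74), 9 of 9 of complex III lower (-0.87), 10 of 10 of complex IV lower (-0.67) and 15 of 15 of complex V lower (-0.75). Uqcr10, a small subunit of complex III, had 259, 320.2 and 477 CPM in high-mt cells and 668, 774 and 1038 CPM in low-mt cells (-1.28 ± 0.06, adjusted p = 2.04e-17), without overlap. Atp5e, a subunit of the ATP synthase stalk, had 236, 294 and 611 CPM in high-mt cells and 755, 1097 and 1237 CPM in low-mt cells (-1.78 ± 0.08). Cox4i1, of complex IV, and Ndufa4 fell by less, with log2 fold changes of -0.62 ± 0.06 and -0.52 ± 0.08. Within complex II, Sdhb was lower (-0.71 ± 0.09) while Sdha, the flavoprotein, was higher (0.28 ± 0.07, adjusted p = 5.25e-04). The Sdha difference did not pass in pool 2 alone or in clones alone (0.20 in both).

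Mitochondrial ribosomal proteins followed the same direction, with 67 of 77 lower and 0 higher (median -0.61). Mrpl52 had 149, 214 and 288 CPM in high-mt cells and 309, 432 and 491 CPM in low-mt cells (-0.999 ± 0.07). Of 16 genes of protein import into mitochondria, 11 were lower and 2 higher (median -0.55). By contrast, genes that express mitochondrial DNA, its polymerases and its transcription and RNA-processing factors, had 6 of 15 higher and 2 lower (median 0.25), a higher share near the 39.5% of all genes. Mitochondrial chaperones and proteases had 6 of 11 higher and 2 lower (median 0.17). Hspd1 and Hspa9, the main chaperones of the matrix, did not pass (0.06 ± 0.07, adjusted p = 0.428, and 0.05 ± 0.07, adjusted p = 0.51). Fusion, fission and mitophagy genes had 8 of 13 lower and 4 higher. Of the tricarboxylic acid cycle 8 of 13 were lower and 1 higher, and of fatty acid oxidation 7 of 14 were lower and 3 higher.

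Genes of the cytosol and of the secretory pathway were lower too. All 13 tested genes of the cytoskeleton and translation list were lower (median -1.004). Pfn1, profilin, which binds actin monomers, had 95.3, 145 and 261 CPM in high-mt cells and 371, 744.5 and 905 CPM in low-mt cells (-2.31 ± 0.09, adjusted p = 1.48e-19), without overlap. Tmsb4x, which also binds actin monomers, had 1278, 2104 and 2553.5 CPM in high-mt cells and 3530.0, 4151 and 4826 CPM in low-mt cells (-1.02 ± 0.06). Actb, Eef1a1 and Tpt1 had log2 fold changes of -1.14, -1.05 and -1.58. All 16 tested genes for chaperones and translocation at the endoplasmic reticulum were lower (median -0.85), among them Sec61b, a subunit of the translocation channel (-1.96 ± 0.07), Pdia3 (-1.01 ± 0.08) and the chaperone Hspa5 (-0.56 ± 0.07). Of glycolysis, 9 of 11 were lower and 1 higher, with Gapdh at 114, 178 and 237 CPM in high-mt cells and 260.0, 579 and 768 CPM in low-mt cells (-1.67 ± 0.07). Of ferritin and antioxidant genes 10 of 12 were lower, with Fth1 at -0.95 ± 0.06.

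Over all cells, genes of damage and stress responses were not raised as groups. Some of these lists went otherwise within cell classes, as given below. Of the integrated stress response 6 of 7 were lower and 0 higher (median -0.79), Atf3 among them (-0.87 ± 0.10). Of p53 targets 4 of 8 were lower and 0 higher, with Cdkn1a, a cell cycle inhibitor, at 18.3, 38.9 and 107 CPM in high-mt cells and 18.6, 97.1 and 154 CPM in low-mt cells (-1.28 ± 0.14). Of apoptosis genes 6 of 14 were lower and 2 higher, with Bax, which permeabilises the outer mitochondrial membrane, at -0.72 ± 0.09. Of heat shock genes 6 of 11 were lower and 3 higher. Of immediate early genes, which dissociation can induce, 6 of 16 were lower and 2 higher. Fos was lower (-0.73 ± 0.08) and Jun higher (0.23 ± 0.08, adjusted p = 0.00859). The medians of the apoptosis, heat shock and immediate early lists were -0.10, -0.14 and -0.16 with TMM scaling and 0.24, 0.19 and 0.17 with library-size scaling. Both times they lay below the median of all genes (0.09 and 0.42). The Jun difference did not pass in pool 1 or pool 2 alone (0.22 in both).

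Secretory lineage lists had the lowest medians among the cell-type lists. All 11 goblet genes were lower in high-mt cells, with a median log2 fold change of -2.79. In sums over all cells, fewer goblet cells and less goblet RNA per cell cannot be told apart. Tff3, a trefoil peptide of mucus, had 569, 968 and 1603 CPM in high-mt cells and 433, 10619 and 20516 CPM in low-mt cells (-3.12 ± 0.29, adjusted p = 5.66e-11). It was lower in 12 of 14 combinations, and in the clones of mice 2 and 3 the high-mt value lay above the low-mt one. Spink4, a protease inhibitor of goblet cells, and Agr2, an endoplasmic reticulum protein needed to fold mucin, had -3.02 ± 0.28 and -2.87 ± 0.24. Muc2, the gel-forming mucin itself, fell by 1.42 ± 0.24 on the log2 scale. Guca2a, guanylin, was lower in 14 of 14 (-2.79 ± 0.14), as was Creb3l4, a transcription factor of the endoplasmic reticulum membrane (-2.72 ± 0.15), and Selenom, a selenoprotein of the same compartment (-2.90 ± 0.13). The 12 largest falls were taken from genes lower in every combination, which leaves out Tff3. Those not yet named were Ramp1 (-3.27 ± 0.19), Sct, the hormone secretin (-2.83 ± 0.17), Mmp7, which activates Paneth defensins (-2.78 ± 0.15), S100a13, Tspan13 and Rnase4, with Smim6 at -1.95 ± 0.09. Of secretory progenitor genes 6 of 7 were lower and 0 higher, with Atoh1, the transcription factor that commits cells to the secretory fate, at 0, 19.1 and 57.8 CPM in high-mt cells and 0, 63.5 and 133 CPM in low-mt cells (-2.01 ± 0.21).

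Paneth genes were divided. Of 11 tested 7 were lower and 2 higher, with a median of -2.02 and a range of -2.89 to 1.37. Lyz1, lysozyme, had 35.7, 100.3 and 480.4 CPM in high-mt cells and 8.37, 392 and 3887 CPM in low-mt cells (-2.03 ± 0.41, adjusted p = 5.73e-05), and Defa24 -2.02 ± 0.37, while Defa30 was at 1.02 ± 0.53 (adjusted p = 0.0863). Alpha-defensins are near-identical copies, so their single values are uncertain, and the Defa30 call depended on the setting. Of 14 enteroendocrine genes 2 could be tested, and both were lower. Chgb, a granin of hormone granules, had 0, 9.31 and 79.7 CPM in high-mt cells and 0, 157 and 1370 CPM in low-mt cells (-4.11 ± 0.50, adjusted p = 2.11e-08), and the other was Sct. Chga and the tuft cell marker Dclk1 were too low to test.

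Absorptive genes went the other way. Of 12 tested genes of mature enterocytes 9 were higher and 1 lower (median 1.18). Mgam, a brush border disaccharidase, had 766, 963 and 1271 CPM in high-mt cells and 371, 518 and 718 CPM in low-mt cells (0.92 ± 0.07, adjusted p = 9.22e-13), without overlap. Fabp2, a small fatty acid binding protein, was the 1 that fell (-0.97 ± 0.15), and Alpi and Fabp1 were too low to test. Of 10 immature enterocyte genes 6 were lower and 2 higher. Of 14 stem cell genes 7 were higher and 4 lower (median 0.19). Lgr5 did not pass, with 47.6, 91.8 and 189 CPM in high-mt cells and 34.1, 73.3 and 192 CPM in low-mt cells (0.14 ± 0.12, adjusted p = 0.297). Axin2, a Wnt target, was higher (0.70 ± 0.07) and Olfm4 lower (-0.45 ± 0.08). Proliferation genes had few calls: G1/S genes had 6 of 16 higher and 1 lower and G2/M genes 4 of 16 higher and 2 lower, with Mki67 at 0.38 ± 0.07 and Top2a at 0.52 ± 0.11.

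**Figure D4:**
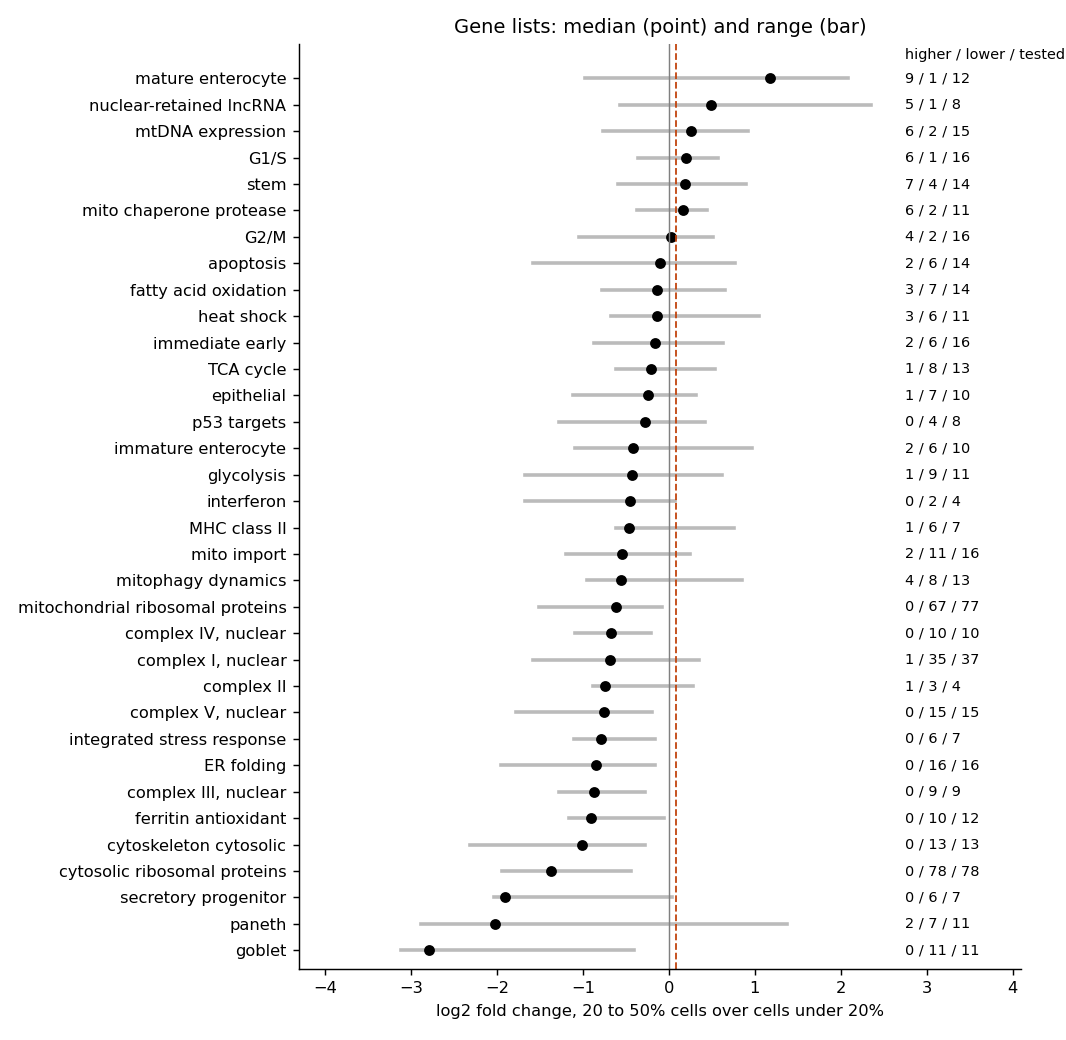
Gene lists in high-mt over low-mt cells: median (point) and range (grey bar) of log2 fold changes over the tested members (x axis), with counts called higher, called lower and tested at the right. The dashed line is the median of all 7987 genes (0.09). Goblet genes (-2.79), Paneth genes (-2.02) and cytosolic ribosomal proteins (-1.37) lie toward the low end and mature enterocyte genes (1.18) at the high end.

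Epithelial markers were abundant in both kinds of cell. Epcam had 2199.5, 2905 and 3602 CPM in high-mt cells and 2805, 2971 and 3122.5 CPM in low-mt cells and did not pass (-0.03 ± 0.06, adjusted p = 0.647), although with library-size scaling it was higher (0.29). Of the 10 epithelial genes 7 were lower and 1 higher. Summed lists are given in CPM of all non-mitochondrial UMIs of a mouse, without TMM scaling. The summed epithelial list was 14124 ± 913 CPM in high-mt cells and 15380 ± 728 CPM in low-mt cells (SD, n = 8 mice). Markers of other cells were rare in both. The 13 immune markers summed to 56 UMIs in all high-mt cells and 405 in all low-mt cells (3.83 to 17.3 CPM per mouse in high-mt cells and 1.32 to 23.5 CPM in low-mt cells), with 6 of 13 at 0 in high-mt cells. The 7 endothelial markers summed to 55 and 260 UMIs (6.05 to 13.4 CPM and 4.39 to 8.07 CPM), with 3 at 0, the 9 stromal markers to 15 and 313 UMIs (0 to 5.38 CPM and 0.448 to 28.7 CPM), with 5 at 0, and the 5 erythroid markers to 3 and 5 UMIs, with 4 at 0. None of these 4 lists had a gene expressed enough to test.

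Transcript length ordered the differences. With ribosomal protein genes left out, 7906 tested genes were ranked by the longest transcript in GENCODE M21 and split into 5 equal length groups. In the shortest group (up to 1.98 kb) 5.89% of genes were higher in high-mt cells and 74.7% lower, with a median log2 fold change of -0.56 (quartiles -0.87 and -0.26). In the longest group (from 5.55 kb) 76.6% were higher and 5.74% lower, with a median of 0.51 (quartiles 0.26 and 0.74). The 3 groups between had medians of -0.13, 0.14 and 0.32. Spearman's rho across genes was 0.61 with transcript length, 0.48 with genomic span, 0.51 with exon number and -0.27 with mean level. Genes are not independent replicates, share libraries and depth, and no p is given.

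The same order was found under other settings. With the low-mt sums thinned to the depth of the high-mt sums, the shortest group had a median of -0.56 and the longest 0.55, and with library-size scaling -0.22 and 0.84. Genomic span added little once transcript length was held: within each length group, genes of longer span had medians higher by 0.12 to 0.21. Many of the groups that fell, such as ribosomal proteins and small respiratory subunits, have short transcripts, and how far length accounts for them was not tested.

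**Figure D5:**
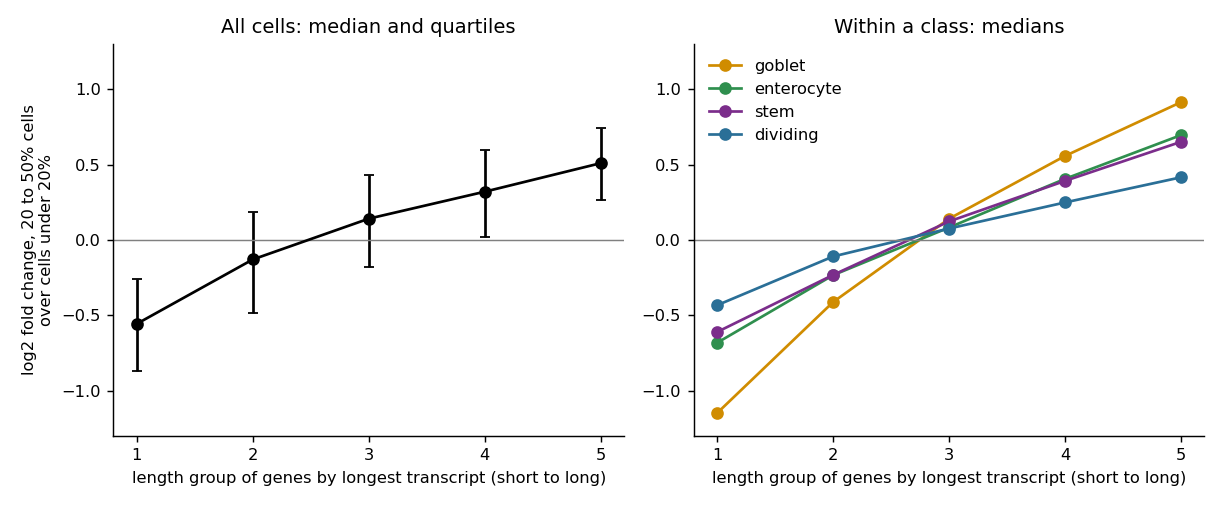
Log2 fold change of high-mt over low-mt cells (y axis) by length group of genes, ranked by their longest transcript (x axis, short to long; ribosomal protein genes left out). Left, all cells, median and quartiles: -0.56 in the shortest group and 0.51 in the longest. Right, medians within 4 cell classes, each lowest in the shortest group and highest in the longest.

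Cell classes were compared to see whether the differences lay between cell types or within them. Cells of both kinds were clustered together without mitochondrial genes, and clusters were named from marker genes. For shares, genes that differed between high-mt and low-mt cells within a class were also left out of the clustering. Goblet-like cells were 11.95% ± 6.00 of high-mt cells and 23.7% ± 5.87 of low-mt cells (SD, n = 8 mice), lower in 8 of 8 (exact sign-flip test, p = 0.00781, adjusted p = 0.0625 over 8 classes). Enterocyte-like cells were 14.4% ± 4.48 of high-mt cells and 10.7% ± 3.12 of low-mt cells (exact adjusted p = 0.104). Dividing cells were 24.7% ± 8.07 and 23.6% ± 7.39 and stem-like cells 15.2% ± 6.63 and 16.3% ± 7.83. Paneth-like, tuft-like and enteroendocrine-like cells were 3.67%, 1.28% and 0.673% of high-mt cells and 2.92%, 2.33% and 1.41% of low-mt cells. Cells of no named class were 28.0% ± 11.3 of high-mt cells and 19.0% ± 9.09 of low-mt cells (exact adjusted p = 0.104). No class share passed after adjustment. With 8 mice the smallest exact sign-flip p is 0.00781, which becomes 0.0625 over 8 classes where a single class reaches it. Goblet-like cells were at that limit, so on their own they could not have passed. Clusters within a class were unevenly filled. The goblet-like cluster led by Zg16 and Clca1 held 31.7% high-mt cells and the one led by Agr2 and Fkbp11 15%. Of 2 Paneth-like clusters, the one led by Lyz1 and Defa24 held 6 high-mt cells among 58, and the one led by Defa21 and Defa22 held 37 among 45.

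Within 4 classes with enough cells, sums of high-mt and low-mt cells were tested again with edgeR's quasi-likelihood test. In dividing cells (479 high-mt, 595 low-mt, 11 combinations of mouse and gate) 1830 of 6627 genes were higher (27.6%) and 1626 lower (24.5%). In stem-like cells (239 and 364, 8 combinations) the counts were 925 higher (33%) and 768 lower (27.4%) of 2805. In enterocyte-like cells (204 and 210, 5 combinations) they were 1136 (30.1%) and 1054 (27.9%) of 3776, and in goblet-like cells (132 and 264, 6 combinations) 877 (32.5%) and 854 (31.6%) of 2701. Without mouse 3 the higher and lower counts were 1667 and 1480 in dividing, 861 and 719 in stem-like, 935 and 890 in enterocyte-like and 791 and 799 in goblet-like cells. Of the genes called in both the class and all cells, 3279 in dividing, 1588 in stem-like, 2028 in enterocyte-like and 1512 in goblet-like cells had the same direction, and 4, 21, 20 and 50 the opposite one. These fits share their cells with the fit over all cells, and the classes come from the same genes. Combinations of mouse and gate entered as separate pairs here too.

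The ribosomal protein group was lower in every class: 78 of 78 in dividing cells (median -1.12), 77 of 78 in stem-like cells (-1.48), 77 of 78 in enterocyte-like cells (-1.40) and 77 of 77 in goblet-like cells (-1.64). Pfn1 had log2 fold changes of -2.21, -2.05, -2.24 and -2.84 in the same order of classes, and Malat1 0.60, 1.00, 1.26 and 1.34. Neat1, which did not pass over all cells, passed in each class (0.37, 0.84, 1.21 and 1.11). Kcnq1ot1 was higher in the 3 classes where it was tested (1.84, 2.68 and 2.748 in dividing, stem-like and enterocyte-like cells). Nuclear subunits of complex I were lower for 34 of 37, 31 of 36, 35 of 37 and 33 of 36. Stress lists did not all keep their direction over all cells. Immediate early genes, in the same order of classes, had 5, 7, 7 and 3 higher and 4, 2, 2 and 6 lower, of 14 each. Of the integrated stress response 5 of 7, 0 of 4, 0 of 3 and 1 of 5 were lower and 0 higher. Apoptosis genes had 1 higher and 5 lower of 12, 3 and 2 of 6, 2 and 5 of 10, and 1 and 2 of 6. Shares over all genes of each class are given above. The order by transcript length held in each class, with medians from the shortest to the longest group of -0.43 to 0.42 in dividing, -0.61 to 0.65 in stem-like, -0.68 to 0.70 in enterocyte-like and -1.15 to 0.91 in goblet-like cells.

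Marker genes of one class were higher in high-mt cells of some other classes and lower in others. In stem-like cells all 7 goblet genes tested were higher (median 1.37), with Tff3 at 1.22 ± 0.15, Muc2 at 1.40 ± 0.20 and Agr2 at 1.37 ± 0.15. In enterocyte-like cells 5 of 6 goblet genes were higher and 1 lower, and Tff3 was at 1.40 ± 0.15. In dividing cells, by contrast, 7 of 10 goblet genes were lower and 0 higher (median -0.96). Paneth genes had 5 of 7 higher and 1 lower in dividing cells, and 5 of 6 lower and 0 higher in goblet-like cells. Olfm4, a stem cell gene, was higher in high-mt enterocyte-like (2.44 ± 0.24) and goblet-like cells (2.32 ± 0.25) and lower in high-mt stem-like (-0.72 ± 0.13) and dividing cells (-0.57 ± 0.09). The stem-like class joined 2 clusters, and the one led by Olfm4 itself held 46 of the 239 high-mt and 180 of the 364 low-mt cells, so the difference within the class cannot be told apart from its make-up. Defa24 was higher in high-mt enterocyte-like (1.93 ± 0.22) and stem-like cells (1.84 ± 0.14) and lower in high-mt goblet-like cells (-1.50 ± 0.27). Within goblet-like cells Tff3 was lower (-2.89 ± 0.17) while Muc2 did not pass (-0.19 ± 0.15, adjusted p = 0.252). Here 1 cluster held 125 of the 132 high-mt goblet-like cells and the other 180 of the 264 low-mt ones. In dividing cells 13 of 16 G2/M genes were lower and 0 higher, against 2 lower over all cells. The dividing cluster led by Cdc20 and Ccnb2, genes of mitosis, held 84 of the 479 high-mt and 196 of the 595 low-mt dividing cells, and the cluster led by the replication genes Pola1 and Hells held 190 and 110. This difference, too, cannot be told apart from the mix of clusters. The depth differed alongside, with a mean median of 4147 non-mitochondrial UMIs in high-mt cells and 17383 in low-mt cells, and the part of free RNA from other cells in these values was not tested.

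Clones and control cells were then compared inside the high-mt cells, over all 16 sums. With pool and time as covariates, 10 of 5788 genes were called (0.173%), 9 higher in clones and 1 lower, and 561 had an unadjusted p under 0.05. Lgr5 had 148, 197 and 412 CPM (lowest, median and highest of 8 mice) in clones and 56.7, 63.3 and 112 CPM in control cells (1.29 ± 0.19, edgeR adjusted p = 0.00137), without overlap. Olfm4 had 2155, 2525 and 5705 CPM in clones and 1313, 1568 and 1983 CPM in control cells (0.83 ± 0.16, adjusted p = 0.0352), also without overlap. The stem cell and Wnt genes Axin2 (0.81 ± 0.14, adjusted p = 0.0101) and Slc12a2 (0.77 ± 0.16, adjusted p = 0.0445) were higher in 8 of 8 mice, as were Ets2, Sorbs2 and the cell cycle kinase Cdk6. Thbs1 and Pdgfa, which encode secreted ligands, were higher in 7 and 6 of 8. Zg16, a lectin of goblet granules, was lower (-1.38 ± 0.29, adjusted p = 0.0445). Lgr5 drives the fluorescence behind the gate, so its difference cannot be told apart from the sort. These sums run over all cell types. For the other genes, here and in the blocked fit below, a different mix of cells and a change within cells cannot be told apart. Lgr5 was called in all 12 alternatives, Axin2 in 10 and the others in 5 to 7.

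The gates of a mouse come from 1 animal, and a fit with mouse as the block was also made: 53 genes were then higher and 53 lower (1.83%), among them all 10 above. In that fit 6 of 11 stem cell genes were higher and 0 lower, 7 of 11 goblet genes and 8 of 12 mature enterocyte genes lower and 0 higher, and 3 of 8 Paneth genes higher and 0 lower. Among the largest changes were those in Defa21 (1.31 ± 0.18), Defa22 (1.31 ± 0.15), Lgr5 (1.27 ± 0.18) and the defensin-like genes Gm14851 and Gm15293, and in Apoa1 (-2.03 ± 0.39), an apolipoprotein of enterocytes, Hepacam2, Cracr2a and Clca1. Apoa1 had an adjusted p of 0.00183. Without mouse 6 the unblocked counts were 19 higher and 19 lower, and without mouse 3 they were 1 and 0.

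Between times, 0 of 5788 genes were called in high-mt cells at 72 h against 48 h (0%; 510 with an unadjusted p under 0.05), and DESeq2 called 0. Without mouse 8, however, 45 genes were higher at 72 h and 71 lower. These fits entered both gates of a mouse as separate sums, although each time had only 4 mice, so their p-values do not measure the spread between mice alone. Whether the difference between high-mt and low-mt cells itself depended on the gate or the pool was tested as an interaction over 7987 genes. The gates of a mouse again entered as separate pairs. No gene was called for gate (378 with an unadjusted p under 0.05) or pool (336), by edgeR alone, since no other tool was run on these terms.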

How the data were processed

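The deposited matrices hold whole-number counts of UMIs per gene and of hashtag antibodies per barcode for 2 pools, made with Cell Ranger 6.1.2 on mm10 per the submitters' processing notes, and were not normalized by the authors per the file headers. The accompanying deposited lists of features and cells contain other information, the identifiers, symbols and barcode sequences. Whether reads were counted by strand, and how the authors filtered cells or called hashtags, is not given in the sources used here. The top hashtag gave the mouse, and hashtag with pool gave the gate, per the labels. No doublet caller was run, and the limit of 60% on the top hashtag removes only barcodes that mix mice. The members and gene lists were chosen with earlier results of these data known.

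UMIs of genes other than mitochondrial ones were summed per mouse, gate and mitochondrial class (at least 10 cells in a sum) and tested, two-sided, with edgeR 4.0.16 in R 4.3.3 (TMM scaling and the quasi-likelihood F-test on genes kept by filterByExpr, mouse and gate as a block, adjusted p under 0.05). Clones against control used pool and time as covariates, and time used pool and gate. DESeq2 1.42.0 was an alternative. Shares and mitochondrial make-up were compared by exact permutations or sign flips over mice. Per the labels each mouse was stained with its own hashtag before the sort, so both gates under 1 hashtag are taken as 1 animal, which is the source of the pairing. No label sets hashtags and mouse numbers side by side, and they were joined through the lists of gates and times. Residuals of its 2 high-mt sums correlated from -0.03 to 0.46, and in 5 of 8 mice over 0.1.

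Clusters (scanpy 1.11.5, Python 3.11.15, Leiden resolution 1) were named where at least 3 markers lay among the 50 leading genes and 25% of markers were raised, or where most markers were raised and at least 1 led, a rule settled after the data were seen. Named genes were the 12 largest changes each way among genes at an average log2 CPM of 5 or more that had 1 sign in every combination of mouse and gate, the 3 highest-expressed genes per list and a fixed set. Other comparisons named the largest called genes with average log2 CPM of at least 5. Some genes that the rule names are not reported here. Positions and lengths are from GENCODE M21 (GRCm38), which matched 99.96% of tested genes by identifier. Counts were also simulated from these data, with changes added to a small set of genes, balanced up and down. There edgeR recovered 98% of changes of 1 and 93% of changes of 2 on the log2 scale between high-mt and low-mt cells (8 false calls among 7987 genes). It recovered 72% and 88% between gates (9 false calls among 5788) and 76% and 83% between times (4 false calls). In the data 71.5% of genes were called between high-mt and low-mt cells, so these rates do not measure error under such broad change.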

Additional observations from a re-analysis of the deposited data

Results flagged for a closer look

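In 6 of 68 groups of mice examined, 1 mouse lay farther from the rest than a Dixon test at the 95% level allows, where chance alone gives about 1 group in 20. Within the mitochondrial UMIs, mt-Nd1 reached 6.1996% in the high-mt cells of 1 mouse, and mt-Co2 was as low as 12.5% in the low-mt cells of 1 mouse. Among markers of other cells, the immune list reached 23.5 CPM and the stromal list 28.7 CPM in the low-mt cells of 1 mouse each. Among class shares, enteroendocrine-like cells reached 3.08% and tuft-like cells 4.62% of the high-mt cells of 1 mouse each. These rest on few cells, since the high-mt cells held 6 enteroendocrine-like and 17 tuft-like cells in all.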

How the results depend on the processing

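Of the 70 genes named between high-mt and low-mt cells, 61 kept their direction and their side of the threshold in all 24 alternatives. Of 1665 such values 13 lost the call, 16 gained one and 4 changed sign: Lgr5 against cells under 10% (-0.013), Epcam with library-size scaling (0.29) and at 20% to 35% (0.037), and Neat1 at 20% to 35% (-0.0071). The counts of 3152 higher and 2557 lower genes became 4787 and 1363 with library-size scaling and 1965 and 1681 in clones alone. Of 34 list medians, 9 changed sign: those of G1/S genes at 25% to 50% (-0.000332) and in clones alone (-0.018), of apoptosis genes with library-size scaling (0.24) and in control cells alone (0.00146), of immediate early (0.17), heat shock (0.19), tricarboxylic acid cycle (0.13), fatty acid oxidation (0.20), epithelial (0.08) and p53 target genes (0.06) with library-size scaling, and of G2/M genes, which lay between -0.19 and 0.36, in 10 of 24 alternatives. That scaling gave a median of all genes of 0.42 in place of 0.09. The causes were not tested. Library-size scaling, 20% to 35%, single gates, single pools for the mitochondrial make-up, shares without an upper limit or without mice 1 and 4, and classes without mouse 3 were chosen after seeing the data.

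In pool 2 alone 5 mitochondrial genes passed in place of 8. The gap in share between gates ranged from -1.64 to 5.29 at 72 h and from 9.76 to 17.98 over all mice as single mice were left out. The 9 higher and 1 lower genes between gates became 21 and 3 with DESeq2, 40 and 72 without the filter on low counts, and 53 and 53 with the replicate block, and ranged from 1 to 19 and 0 to 19 without single mice. The block changed no call on shares. The 0 genes between times became 51 and 19 without that filter and ranged from 0 to 45 and 0 to 71 without single mice. High-mt cells of the 48 h clones numbered 12 to 33 per mouse, and the effect of cell number on the calls was not tested.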
